A study of Mus musculus with 20 samples.

Results

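The genes described here are 10 transcripts of the major histocompatibility complex (MHC) class I pathway and the immunoproteasome: *H2-K1*, *H2-D1*, *B2m*, *Tap1*, *Tap2*, *Tapbp*, *Nlrc5*, *Psmb8*, *Psmb9* and *Psmb10*. They were chosen by symbol, with earlier results of these data known, and all 10 were found among the 16810 genes of the deposited table. Microglia came from 1 cm of spinal cord centred on the lesion (an equivalent segment in controls), were sorted on high eGFP fluorescence, and had their polyadenylated RNA sequenced. All mice, controls included, were adult CX3CR1+/eGFP males on a C57BL/6 background, in which eGFP replaces a copy of *Cx3cr1* and marks microglia and also peripheral monocytes. Non-injured (NI) mice gave 3 samples. Mice with a lateral hemisection (HS) at a thoracic level provided 3 libraries 72 h post-lesion, 2 after 1 week and 3 after 2 weeks, and mice with a full transection (FT) at the same level provided 3 per time. The study used more mice than there are libraries, so a library may hold RNA of several animals. In a sorted population, a different mixture of cells and a different amount of RNA per cell cannot be told apart.

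MHC class I molecules carry short peptides from inside the cell to its surface, where CD8+ T cells and natural killer cells read them. The heavy chains H2-K and H2-D pair with the light chain beta-2 microglobulin (*B2m*). Peptides are cut by the proteasome, in which the inducible catalytic subunits Psmb8, Psmb9 and Psmb10 can take the places of the constitutive subunits Psmb5, Psmb6 and Psmb7. They are pumped into the endoplasmic reticulum by the Tap1-Tap2 transporter and loaded with the help of tapasin (*Tapbp*). Nlrc5 is the transactivator of class I genes and acts at a conserved promoter module with X and Y boxes. Class I transcripts are known to respond to interferons, and resident microglia express them at a low level in the healthy nervous system.

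In GRCm38 (GENCODE vM21), 7 of the 10 genes lie on chromosome 17. *Tapbp* spans 33915899 to 33929292 and *H2-K1* 33996017 to 34000347. *Psmb9* (34181987 to 34187764), *Tap1* (34187553 to 34197225), *Psmb8* (34197721 to 34201454) and *Tap2* (34203527 to 34216321) follow each other in a row, and *H2-D1* lies at 35262730 to 35267499. *B2m* is on chromosome 2 (122147686 to 122153083), and *Nlrc5* (94434356 to 94527272) and *Psmb10* (105935735 to 105938444) are on chromosome 8. Reads were counted over whole genes. *Psmb9* and *Tap1* run in opposite directions and overlap at their 5′ ends. The strandedness of the libraries is not given in the sources used here, so reads from the overlap cannot be told apart. The heavy chains share sequence with their paralogs: 8.79% of the 50-base windows of the *H2-K1* transcript and 14.3% of those of *H2-D1* also occur in transcripts of other genes, most often *H2-D1* and *H2-Q1* respectively. The counts of these 2 genes are therefore less certain than those of the other 8 members, of which at most 2.00% of windows are shared.

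RefSeq promoter sequences (GRCm38.p6, 250 bases before to 50 after the start) were at hand for 8 of the 10 genes, *Tap2* and *Nlrc5* not being among them. The heavy chains and *B2m* hold the same spaced pair of motifs, TGACG (the X2 box, a CRE-like element) followed after exactly 20 bases by ATTGG (the Y box, an inverted CCAAT). It is shown because it belongs to the kind of module at which Nlrc5 is known to act. The capitals mark the motifs and each sequence is read along its own gene, 5′ to 3′:
*H2-K1*, minus strand, chr17:34000359-34000388: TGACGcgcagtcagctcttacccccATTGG
*H2-D1*, plus strand, chr17:35262993-35263022: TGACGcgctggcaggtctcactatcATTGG
*B2m*, plus strand, chr2:122147609-122147638: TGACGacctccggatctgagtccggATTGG
Of the 30 bases, 23 are identical between the heavy chains, 13 between *H2-K1* and *B2m* and 12 between *H2-D1* and *B2m*. These counts include the motif bases, which are identical because the stretches were chosen by them. The RefSeq start of *H2-D1* lies downstream of its GENCODE start, so its stretch falls inside the gene span given above. Searched on both strands, the spaced pair occurs in 26 of 27025 promoters (0.0962%), and *H2-M3*, a non-classical class I gene, also holds it. Its parts are common: 21.0% of promoters hold TGACG and 37.9% hold ATTGG, overlapping or not. None of the promoters of *Tap1*, *Tapbp*, *Psmb8*, *Psmb9* and *Psmb10* holds the spaced pair in these letters, which says nothing about any factor.

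Upstream of the pair, *H2-K1*, *H2-D1* and *B2m* hold a match to GGGA, any 4 bases and CC, a loose form of the NF-kappaB motif that 20.5% of promoters contain. *B2m* alone among the 8 holds GAAA, any 2 bases and GAAA, a core of the interferon-stimulated response element found in 3.49% of promoters. The search took these letters alone. Looser forms of the element, in *H2-K1* or the other promoters, were not searched for and may be present. Capitals mark these motifs and the spaced pair in the stretches that run towards each start:
*H2-K1*, minus strand, chr17:34000348-34000478: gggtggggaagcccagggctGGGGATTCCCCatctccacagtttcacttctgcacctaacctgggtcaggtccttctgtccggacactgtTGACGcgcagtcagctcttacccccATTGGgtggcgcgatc
*B2m*, plus strand, chr2:122147540-122147668: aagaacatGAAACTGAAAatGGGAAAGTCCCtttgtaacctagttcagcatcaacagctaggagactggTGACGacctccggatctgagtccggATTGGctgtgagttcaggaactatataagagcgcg
The motifs were chosen after the sequences were seen, and a match is a description of letters, not of binding.

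Values are normalised read counts in CPM, on 3.87 M to 34.1 M reads on genes per sample. The paper states a normalisation by library size. Column totals ran from 777426 to 1.20e+06 CPM, so the deposited scale does not rest on the reads of each column alone. Scaling all columns to 1 total, an alternative used below, does rest on those reads alone. A differentially expressed (DE) gene had an adjusted p under 0.05 (limma, Benjamini-Hochberg over the whole table) and differed by 2-fold or more on the log2(CPM + 0.5) scale. The groups hold separately labelled samples of which no source says which animals they came from, so p-values measure the spread between these samples. In each of the 7 groups, 1 library had 41.7 to 86.2 CPM of *Bsg*, which encodes the surface protein basigin, where the other 13 libraries had 115 to 414 CPM. Of 9871 genes with a mean of at least 5 CPM, 375 were lowest and 108 highest in that library in all 7 groups. *H2-D1* and *Tap1* were among the former and *B2m* among the latter. These libraries are named as low-*Bsg* below; the division was made after seeing the data. Homeostatic microglial markers summed to 13938 to 30747 CPM in the 20 samples, against 33.1 to 318 CPM for 10 monocyte markers, 10.7 to 23.1 CPM for 12 markers of T and NK cells and 31.2 to 55.6 CPM for 5 B cell markers. The highest sums of other cell types were those of 7 oligodendrocyte markers (382 to 2436 CPM) and 6 astrocyte markers (144 to 584 CPM). Endothelial markers summed to 20.5 to 79.8 CPM and neuronal markers to 8.89 to 50.9 CPM.

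In the sorted cells, members passed both limits from 1 week after injury on, with higher values than in NI. No member was a DE gene at 72 h post-lesion after either injury (0 of 10). The DE share of the table was largest at that time, 13.4% (HS) and 12.2% (FT). For 10 members, 0 is near those shares. At 1 week, 1 member (*Nlrc5*) passed both limits after HS, with a background of 2.18%, and 2 (*B2m* and *Nlrc5*) after FT, with a background of 4.05%. At 2 weeks, 3 members (*H2-K1*, *Tap1* and *Nlrc5*) had risen after HS against 3.23% of all genes, and 6 (*H2-K1*, *H2-D1*, *B2m*, *Tap1*, *Nlrc5* and *Psmb8*) after FT against 4.88%. All of these DE members were higher than in NI and none was lower. *Tap2*, *Tapbp*, *Psmb9* and *Psmb10* did not reach both limits in any group.

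By adjusted p alone, without the 2-fold limit, 2 members passed at 72 h after HS (27.3% of all genes) and 3 after FT (24.2%), 2 at 1 week after HS (2.68%) and 6 after FT (7.03%), and 5 at 2 weeks after HS (4.99%) and 8 after FT (8.17%). The shares at 72 h were close to the background. The median log2 change of the 10 members was 0.27, 0.60 and 0.95 at 72 h, 1 and 2 weeks after HS and 0.56, 0.76 and 1.18 after FT, while the median over all genes lay between -0.11 and 0.02. The plot of changes from NI shows this order of times. All comparisons with NI share its 3 samples.

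**Figure D1:**
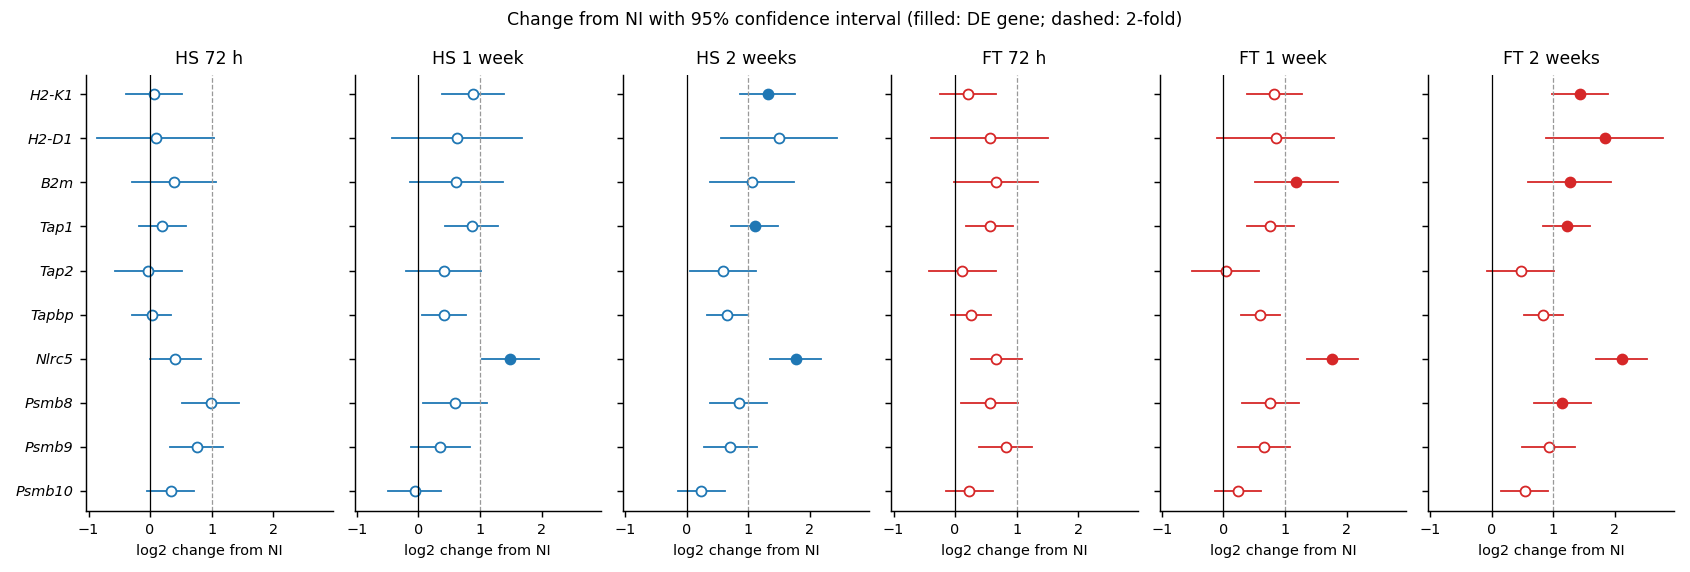
Log2 change of each member from NI (x axis, log2 of CPM plus 0.5) in the 6 injured groups, with the 95% confidence interval of the limma fit as a line; filled points are DE genes and the dashed line marks 2-fold. Filled points are absent at 72 h and number 6 of 10 at 2 weeks after FT.

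These counts depend on the scale. So do statements below that samples lie above those of NI, or above those of an earlier time, in CPM. The share of all genes that do so was not counted for either. NI columns sum to less than those of the injured samples, and with all columns scaled to 1 total the median of all genes against NI moved to between -0.52 and -0.17, with 1 member called at 2 weeks after HS and 3 after FT. Of the 60 changes of the members from NI, 45 kept their sign under every scaling tried. The other 15 were mostly at 72 h and none was a DE call. They were those of *B2m*, *H2-K1*, *Psmb10* and *Tapbp* at 72 h after both injuries, of *H2-D1*, *Nlrc5* and *Tap1* at 72 h after HS, of *Tap2* at 72 h and 1 week after FT, and of *Psmb10* at 1 week after FT and 2 weeks after HS.

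*Nlrc5*, the class I transactivator, had the largest change of the 10 members at 1 and 2 weeks after both injuries in the fit to all samples. At 2 weeks after HS the order turned without the low-*Bsg* libraries (1.59, against 1.76 for *H2-D1*) and without that group's low-*Bsg* library alone. It also turned at 2 weeks after FT with samples left out in turn. There *H2-D1* reached 2.184 and *Nlrc5* at most 2.175. *Nlrc5* had 10.5, 11.97 and 10.2 CPM in the 3 NI samples. At 72 h it had 12.6, 13.2 and 18.7 CPM after HS and 17.8, 14.9 and 20.3 CPM after FT. At 1 week it had 31.9 and 30.9 CPM after HS and 31.0, 48.4 and 37.3 CPM after FT. On the deposited scale all 17 injured samples lay above all NI samples, and every sample at 1 week lay above every sample at 72 h. With equal totals *Nlrc5* changed by -0.08 on the log2 scale at 72 h after HS. At 2 weeks it had 32.7, 46.4 and 36.7 CPM after HS and 46.4, 53.9 and 45.3 CPM after FT. After HS the log2 change from NI was 0.41 at 72 h (SE 0.20, adjusted p = 0.129), 1.49 at 1 week (SE 0.22, adjusted p = 3.11e-04) and 1.77 at 2 weeks (SE 0.20, adjusted p = 3.66e-06). After FT it was 0.67 (SE 0.20, adjusted p = 0.0180), 1.77 (SE 0.20, adjusted p = 3.92e-06) and 2.11 (SE 0.20, adjusted p = 2.52e-07), the last a 4.31-fold rise. It was the DE member at 1 week after HS under every alternative but the fit without low-*Bsg* libraries, in which that group is a single sample (log2 change 1.47, adjusted p = 0.0691).

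Of the heavy chains, *H2-K1* gave the clearer course. It had 452, 473 and 442 CPM in NI, 349.6, 583 and 527 CPM at 72 h after HS and 488, 456 and 658 CPM at 72 h after FT. These 72 h samples overlapped NI. At 1 week it had 801 and 883 CPM after HS and 845, 850.1 and 738 CPM after FT, and at 2 weeks 912, 1115 and 1431 CPM after HS and 1058, 1488 and 1179.7 CPM after FT. Every sample from 1 week on lay above every NI sample and above every 72 h sample. The log2 change from NI at 2 weeks was 1.31 after HS (SE 0.22, adjusted p = 5.02e-04) and 1.43 after FT (SE 0.22, adjusted p = 1.16e-04). At 1 week it was 0.88 after HS (adjusted p = 0.0544) and 0.83 after FT (adjusted p = 0.0206), under 2-fold. Without the low-*Bsg* libraries the 2-week changes were 1.30 (adjusted p = 0.0344) and 1.44 (adjusted p = 0.0125). Other scalings took *H2-K1* under 2-fold, to 0.92 (quantile) and 0.99 (equal totals) after HS and to 0.89 (quantile) after FT, while it stayed past the p limit.

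*H2-D1* had the widest spread of the 10 members at 2 weeks after both injuries (CV 46.1% after HS and 36.2% after FT). It had 409, 421 and 268 CPM in NI, 1364, 524 and 1458 CPM at 2 weeks after HS and 1585, 1681 and 790.1 CPM at 2 weeks after FT. The low value of each of these groups is the low-*Bsg* library. The log2 change at 2 weeks was 1.84 after FT (SE 0.46, adjusted p = 0.0122) and 1.497 after HS (SE 0.46, adjusted p = 0.0648). With quantile scaling the FT call of *H2-D1* was lost (1.42, adjusted p = 0.0692). A fit with a term for the low-*Bsg* libraries left the HS change as it was, with an adjusted p of 5.85e-05, and without those libraries it was 1.76 (adjusted p = 0.00554). The call after FT was lost without NI replicate 3 (adjusted p = 0.0705), FT 2 weeks replicate 1 (adjusted p = 0.0575) or FT 2 weeks replicate 2 (adjusted p = 0.0657). After HS a call was gained without HS 2 weeks replicate 2 (log2 change 1.97, adjusted p = 0.0172).

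*B2m*, the light chain, was the most abundant member, with 3662, 2845 and 3899 CPM in NI. It had 4627 ± 1391 CPM (SD, n = 3) at 72 h, 5281 ± 672 CPM (SD, n = 2) at 1 week and 7318 ± 1991 CPM (SD, n = 3) at 2 weeks after HS. After FT it had 5877 ± 2879 CPM, 7962 ± 1915 CPM and 8279 ± 849.8 CPM (SD, n = 3 each). The highest sample of every group was the low-*Bsg* library, up to 10161 CPM at 1 week after FT. The log2 change was 1.19 (SE 0.33, adjusted p = 0.0282) at 1 week and 1.26 (SE 0.33, adjusted p = 0.0156) at 2 weeks after FT, and 1.06 (SE 0.33, adjusted p = 0.0682) at 2 weeks after HS. The 1-week call was lost without any of the NI samples (replicates 1, 2 and 3: adjusted p = 0.0668, 0.150 and 0.0574) or without FT 1 week replicate 3 (adjusted p = 0.150). The 2-week call after FT was lost without NI replicate 2 (adjusted p = 0.0975) or FT 2 weeks replicate 3 (adjusted p = 0.0653). The 2-week change after HS passed when FT 72 h replicate 2 (adjusted p = 0.0323) or FT 1 week replicate 1 (adjusted p = 0.0419) was left out, neither of which is in the groups compared. Both FT calls of *B2m* were also lost with other scalings, with changes of 0.61 at 1 week and 0.44 at 2 weeks under quantile normalization (adjusted p = 0.312 and 0.515) and of 0.84 and 0.87 with equal totals (adjusted p = 0.0655 and 0.0516). Without the low-*Bsg* libraries the change of *B2m* was 1.09 at 1 week (adjusted p = 0.151) and 1.27 at 2 weeks after FT (adjusted p = 0.0493). The part of these libraries in the spread of *H2-D1* and *B2m* was not tested further.

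Of the genes of peptide transport, *Tap1* was called at 2 weeks and *Tap2* and *Tapbp* were not, and the difference between them was not tested. *Tap1*, an ATP-binding subunit of the transporter, had 48.0, 44.8 and 41.8 CPM in NI, 50.004, 48.3 and 56.4 CPM at 72 h after HS and 68.6, 54.0 and 78.5 CPM at 72 h after FT. At 1 week it had 89.3 and 75.2 CPM after HS and 76.9, 85.4 and 67.7 CPM after FT. At 2 weeks it had 108, 73.3 and 115 CPM after HS and 111, 114 and 90.9 CPM after FT. On the deposited scale all 17 injured samples lay above all NI samples, while with equal totals *Tap1* changed by -0.31 at 72 h after HS. *Tap1* rose by 1.102 on the log2 scale at 2 weeks after HS (SE 0.18, adjusted p = 5.72e-04) and by 1.22 after FT (SE 0.18, adjusted p = 1.13e-04). At 1 week its log2 change was 0.86 after HS (adjusted p = 0.0219) and 0.76 after FT (adjusted p = 0.0121). Without HS 2 weeks replicate 3 the change at 2 weeks after HS was 0.98 (adjusted p = 0.00683), just under 2-fold, and without the low-*Bsg* libraries, in which *Tap1* was lowest in every group, it was 1.25 (adjusted p = 0.00228). With columns scaled to 1 total the 2-week changes of *Tap1* were 0.78 and 0.82, and with quantile normalization 0.98 and 1.07.

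*Tap2*, the partner of *Tap1*, was not a DE gene in any group. It had 48.6 ± 4.62 CPM (SD, n = 3) in NI and 74.8 ± 18.6 and 67.6 ± 8.01 CPM (SD, n = 3 each) at 2 weeks after HS and FT. The log2 change at 2 weeks was 0.59 after HS (95% confidence interval 0.05 to 1.13, adjusted p = 0.257) and 0.47 after FT (-0.07 to 1.01, adjusted p = 0.351), so that a 2-fold rise is inside both intervals. *Tapbp*, the tapasin that bridges transporter and heavy chain, had 249 ± 10.7 CPM in NI and 393 ± 28.5 and 446 ± 36.3 CPM at 2 weeks after HS and FT (SD, n = 3 each). Its log2 change at 2 weeks passed the p limit but stayed under 2-fold, at 0.65 after HS (SE 0.15, adjusted p = 0.0130) and 0.84 after FT (SE 0.15, adjusted p = 9.37e-04).

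**Figure D2:**
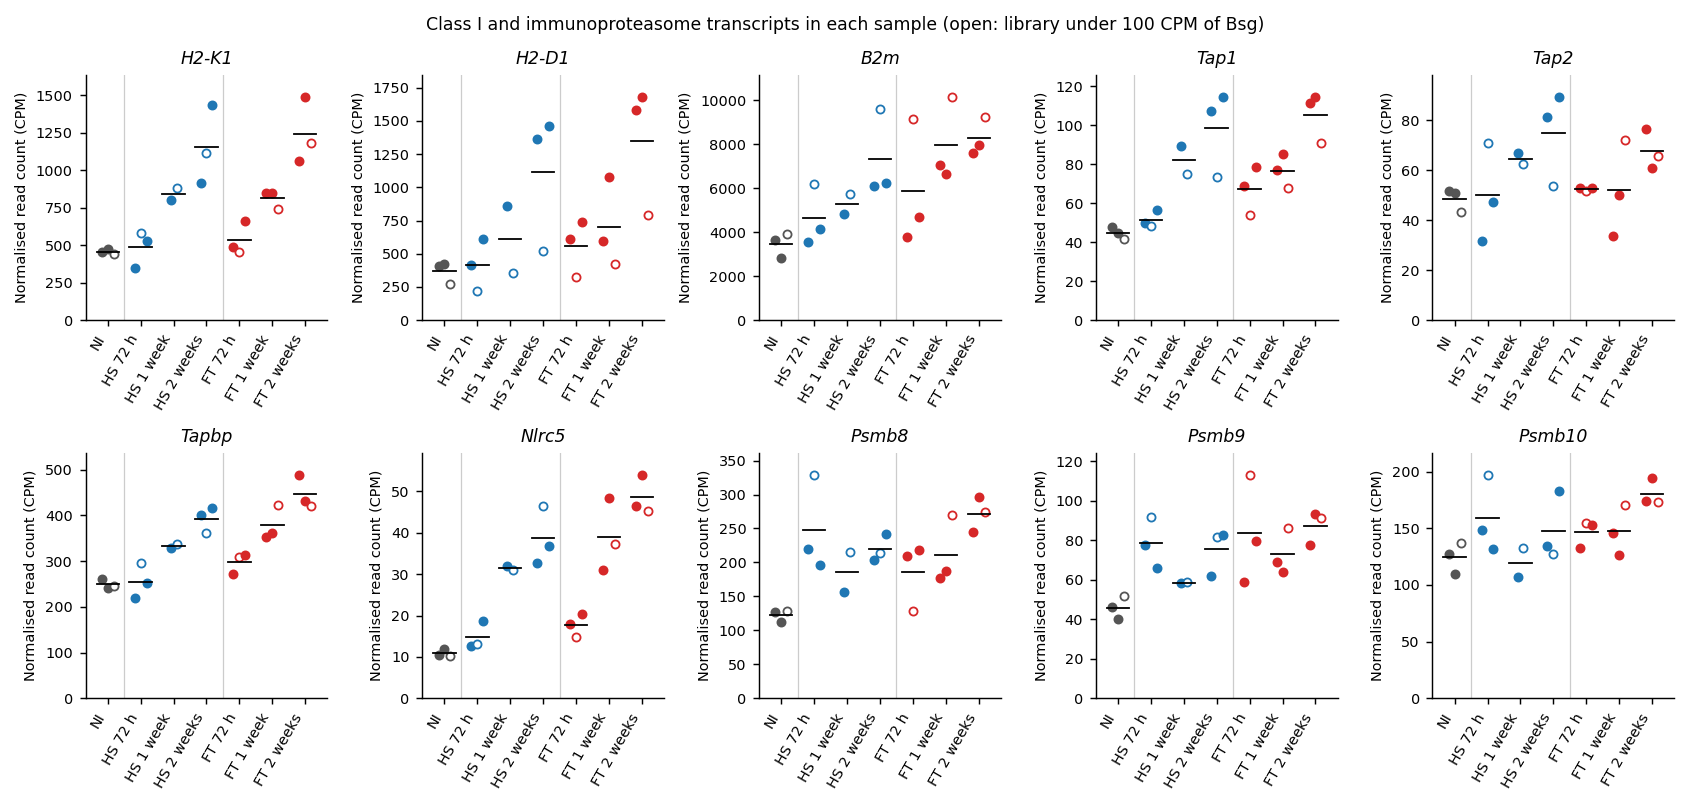
Normalised read count (CPM, linear axis from 0) of the 10 members in each of the 20 samples by group; points are samples, open points are the low-Bsg libraries (under 100 CPM of Bsg) and bars are group means. Nlrc5, H2-K1 and Tap1 climb from 72 h to 2 weeks after both injuries. At 72 h all injured samples of Nlrc5, Tap1, Psmb8 and Psmb9 already lie above all NI samples, for Psmb8 after FT only narrowly.

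Of the inducible proteasome subunits, *Psmb8* passed the p limit at 72 h after HS and *Psmb9* after both injuries, all under 2-fold, and *Psmb10* after neither. *Psmb8* (LMP7) had 126, 112 and 129 CPM in NI. At 72 h it had 219, 328 and 196 CPM after HS and 209.9, 129 and 218 CPM after FT. At 1 week it had 157 and 215 CPM after HS and 177, 187 and 269.5 CPM after FT, and at 2 weeks 204, 214 and 241 CPM after HS and 245, 296 and 274 CPM after FT. On the deposited scale the 17 injured samples all lay above NI, FT 72 h replicate 2 by the least. The log2 change at 72 h was 0.98 after HS (SE 0.22, adjusted p = 0.00234), just under the 2-fold limit, and 0.56 after FT (SE 0.22, adjusted p = 0.0699). At 2 weeks it was 0.84 after HS (adjusted p = 0.0280) and 1.15 after FT (SE 0.22, adjusted p = 0.00155), the latter a DE gene. With quantile or equal-total scaling that call was lost to the 2-fold limit (0.88 and 0.75). The 72 h change after HS passed 2-fold without NI replicate 1 (1.01, adjusted p = 0.00723), NI replicate 3 (1.02, adjusted p = 0.00779), HS 72 h replicate 1 (1.05, adjusted p = 0.00585) or HS 72 h replicate 3 (1.13, adjusted p = 0.00185), and in the 3 count tests on recovered reads (1.02 in each).

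*Psmb9* (LMP2) had 46.2, 40.2 and 51.7 CPM in NI, 77.7, 91.9 and 66.0 CPM at 72 h after HS and 59.2, 113 and 79.8 CPM at 72 h after FT. On the deposited scale all 17 injured samples lay above all NI samples. The log2 change of *Psmb9* was 0.76 at 72 h after HS (SE 0.21, adjusted p = 0.00905) and 0.82 after FT (SE 0.21, adjusted p = 0.00592), and 0.70 (adjusted p = 0.0517) and 0.92 (adjusted p = 0.00539) at 2 weeks. It stayed under 2-fold, except at 72 h after FT without FT 72 h replicate 1 (1.05, adjusted p = 0.00130) and at 2 weeks after FT without NI replicate 3 (1.01, adjusted p = 0.0104) or FT 2 weeks replicate 1 (1.01, adjusted p = 0.00957). With quantile or equal-total scaling the 72 h change of *Psmb8* after HS was 0.52 and 0.48, neither past the p limit, and that of *Psmb9* after FT was 0.56 and 0.35, past it with quantile scaling alone. At 72 h *Psmb10* (MECL-1) overlapped NI after both injuries and its sign turned with scaling. It had 125 ± 13.8 CPM (SD, n = 3) in NI, and its log2 changes ran from -0.06 at 1 week after HS to 0.53 at 2 weeks after FT (SE 0.18, adjusted p = 0.0836).

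The constitutive catalytic subunits changed at the early time. *Psmb5*, *Psmb6* and *Psmb7* were all DE genes at 72 h, with log2 changes of 1.03, 1.17 and 1.18 after HS and 1.05, 1.15 and 1.11 after FT, and none of the 3 was a DE gene at 1 or 2 weeks. Of the 11 structural subunits of the core particle, 8 had risen at 72 h after HS and 7 after FT, among them *Psma1* (1.46 and 1.32) and *Psmb1* (1.38 and 1.32), and 0 later. With columns scaled to 1 total the catalytic subunits still had higher values at 72 h (log2 change 0.52 to 0.68 over both injuries), but none reached 2-fold, and under quantile normalization none did either; of the 11 structural subunits, 1 was then called at 72 h after HS and 0 after FT. Without the low-*Bsg* libraries 2 of the 3 remained called at 72 h after HS and 1 after FT. All 8 proliferation genes also rose at 72 h after both injuries.

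The ratio of an inducible subunit to the constitutive subunit it can replace is not altered when a whole column is multiplied by a factor. Over all 17 injured samples against the 3 NI samples, none of the 3 ratios passed an exact permutation test (two-sided, 1140 arrangements). The difference in mean log2 ratio was 0.31 for *Psmb8* to *Psmb5* (exact permutation p = 0.309, adjusted over the 3 ratios 0.463), -0.08 for *Psmb9* to *Psmb6* (exact permutation p = 0.606, adjusted 0.606) and -0.37 for *Psmb10* to *Psmb7* (exact permutation p = 0.156, adjusted 0.463). The times pulled in different directions. At 72 h the ratio of *Psmb9* to *Psmb6* was 0.205 ± 0.00668 after HS and 0.218 ± 0.0322 after FT, against 0.271 ± 0.0114 in NI (SD, n = 3 each), and that of *Psmb10* to *Psmb7* was 1.17 ± 0.0638 and 1.16 ± 0.229 against 2.10 ± 0.121. In both, the 6 injured samples lay below the 3 NI samples, with log2 differences of -0.37 and -0.86 and the smallest p that 84 arrangements can give (exact permutation p = 0.0119, adjusted over the 3 ratios 0.0179).

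*Psmb8* to *Psmb5* went the other way later. It was 3.27 ± 0.192 in NI (SD, n = 3), 4.96 ± 0.398 (SD, n = 2) and 4.96 ± 0.307 (SD, n = 3) at 1 and 2 weeks after HS, and 4.82 ± 0.669 and 5.42 ± 0.331 (SD, n = 3 each) after FT. Its log2 difference from NI was 0.57 at 1 week (5 injured samples, exact permutation p = 0.0179, the smallest that 56 arrangements can give, adjusted 0.0268) and 0.67 at 2 weeks (6 injured samples, exact permutation p = 0.0119, adjusted 0.0357). *Psmb10* to *Psmb7* was still 0.19 lower at 1 week on the log2 scale (exact permutation p = 0.0179, adjusted 0.0268) and differed by -0.02 at 2 weeks (exact permutation p = 0.917). Adjusted over all 12 exact permutation tests of ratios, the 5 that passed had p = 0.0429. The difference between times was not tested. FT 72 h replicate 2, a low-*Bsg* library, stood apart with a *Psmb8* to *Psmb5* ratio of 1.28, where the other samples of its group had 3.09 and 3.16.

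**Figure D3:**
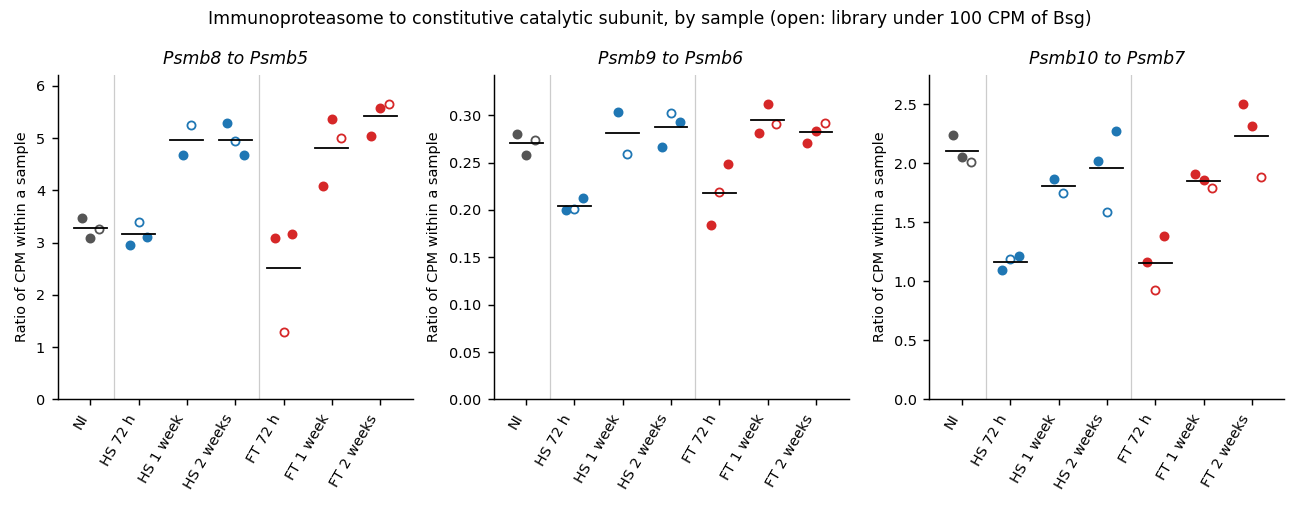
Ratio of each inducible subunit to its constitutive counterpart within a sample (CPM over CPM, linear axis from 0) by group; points are samples, open points are the low-Bsg libraries and bars are group means. At 72 h all 6 injured samples fall below NI for Psmb9 to Psmb6 and Psmb10 to Psmb7, and at 1 and 2 weeks all lie above NI for Psmb8 to Psmb5.

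Levels of different genes were compared per kilobase (kb) of the longest coding transcript. In NI, *B2m* had 4033 ± 643 CPM per kb, *H2-K1* 281 ± 9.72 and *H2-D1* 174 ± 40.5, followed by *Psmb10* at 95.2 ± 10.5, *Tapbp* at 86.0 ± 3.70, *Psmb8* at 75.1 ± 5.58, *Psmb9* at 34.03 ± 4.27, *Tap1* at 15.2 ± 1.04, *Tap2* at 14.1 ± 1.34 and *Nlrc5* at 1.44 ± 0.127 (SD, n = 3 each). The neighbours *Psmb10* and *Tapbp*, and *Tap1* and *Tap2*, differed by no more than their spread. At 2 weeks after FT the order began with *B2m* (9627), *H2-K1* (767) and *H2-D1* (643 CPM per kb), *Psmb8* (167 ± 15.8) and *Tapbp* (154 ± 12.5) differed by no more than their spread, *Psmb10* had 138, and *Nlrc5* was still lowest at 6.40 CPM per kb.

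The times were also compared directly. From 72 h to 1 week, *Nlrc5* rose by 1.08 on the log2 scale after HS (SE 0.22, adjusted p = 0.00363) and by 1.102 after FT (SE 0.20, adjusted p = 0.00129), as the 1 DE member of each comparison, in which 6.03% and 3.44% of all genes were DE. From 72 h to 2 weeks, *H2-K1* and *Nlrc5* rose after both injuries (2 of 10 in each), against a background of 4.74% after HS and 3.81% after FT. *H2-K1* changed by 1.25 after HS (SE 0.22, adjusted p = 6.15e-04) and by 1.22 after FT (SE 0.22, adjusted p = 9.98e-04), and *Nlrc5* by 1.36 (SE 0.20, adjusted p = 8.94e-05) and 1.44 (SE 0.20, adjusted p = 5.04e-05). No member was DE between 1 and 2 weeks (0 of 10), as were 0.0119% of all genes after HS and 0.0714% after FT. With limma, 0 members after HS and 3 after FT had an unadjusted p under 0.05 there, and the edgeR and DESeq2 tests also called 0. The 1-week calls were lost without HS 72 h replicate 1 or HS 1 week replicate 1 (0 members), and without FT 72 h replicate 2 or FT 1 week replicate 2 (0 members). Without HS 2 weeks replicate 2, 4 members were called from 72 h to 2 weeks after HS.

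No member passed the test between FT and HS at any time. At 72 h, 1 and 2 weeks 0 of 10 members were DE, none had an unadjusted p under 0.05 in limma, and the edgeR and DESeq2 tests called 0. The background was 0% of all genes at each time, with 505, 724 and 438 genes at an unadjusted p under 0.05. The 95% confidence intervals of the difference in *Nlrc5* (FT minus HS, log2) were -0.16 to 0.67, -0.18 to 0.75 and -0.08 to 0.75 at the 3 times, and those of *H2-K1* were -0.30 to 0.60, -0.56 to 0.45 and -0.33 to 0.57. For *H2-D1* at 72 h the interval reached from -0.48 to 1.41, which leaves a 2-fold difference inside it.

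Around the members, the other genes of the pathway were described from lists. Of 12 genes of peptide loading and trimming, *Blmh*, which encodes the aminopeptidase bleomycin hydrolase, was the 1 DE gene, at 72 h (log2 change 1.23 after both injuries), and *Calr*, the chaperone calreticulin, had 736 ± 50.6 CPM in NI and 1166 ± 37.4 CPM at 72 h after HS (SD, n = 3 each, log2 change 0.67, adjusted p = 0.0250, under 2-fold). With quantile or equal-total scaling 0 of the 12 were called at 72 h. The direction of *Calr* turned with quantile normalization (-0.05), and with equal totals its change was 0.16. Of 10 proteasome activators and assembly factors, *Pomp*, the assembly chaperone, was DE at 72 h (1.18 after HS and 1.09 after FT), as was *Psmg4* after HS (1.16), while with equal totals 0 of the 10 were called at 72 h. *Psme1*, a subunit of the interferon-inducible PA28 activator, was DE at 1 week (1.01) and 2 weeks (1.16) after FT, and its partner *Psme2* had log2 changes of 0.29 to 0.75 and was not. Both *Psme1* calls were lost under quantile (0.73 and 0.83) and equal-total scaling (0.66 and 0.77), and the 1-week call also without the low-*Bsg* libraries (0.88, adjusted p = 0.0512).

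Of 15 non-classical class I genes measured, 1 was higher and 1 lower at 72 h after each injury. *Mr1*, which presents microbial metabolites, was higher (1.52 after HS and 1.53 after FT), *H2-Q4* lower after HS (-1.42) and *H2-K2* lower after FT (-1.27). Without the low-*Bsg* libraries the calls of *H2-Q4* (-1.17, adjusted p = 0.0812) and *H2-K2* (-0.84, adjusted p = 0.373) were lost. At 1 week 1 was higher after HS and 2 after FT, and at 2 weeks 2 after HS and 5 after FT. *H2-M3*, which presents formylated peptides, had 61.3 CPM in NI and 163 and 183 CPM at 2 weeks, a log2 change of 1.40 after HS (SE 0.23) and 1.58 after FT (SE 0.23). *H2-Q5* rose by 1.55 and 1.69 on the log2 scale at 2 weeks, calls that were lost without the low-*Bsg* libraries (adjusted p = 0.0953 and 0.0603). Counts of *H2-Q* and *H2-T* genes may include reads of their paralogs.

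Among regulators of class I genes, *Irf1*, an interferon-responsive activator, was not DE in any group in the fit to all samples (-0.71, 0.10 and 0.21 after HS and -0.63, -0.55 and 0.23 after FT). With quantile and equal-total scaling it was lower at 72 h, by -1.14 and -1.22 after HS and -1.01 and -1.10 after FT. At that time 2 of 9 settings called it after each injury. *Rfx5*, a subunit of the factor that binds the X box, had 14.0 ± 2.16 CPM in NI (SD, n = 3) and log2 changes between -0.28 and -0.08. *Ciita*, the class II counterpart of *Nlrc5*, was not DE either in that fit (-0.86 to -0.28). With equal totals *Ciita* changed by -1.34 at 72 h after HS and by -1.12 and -1.05 at 1 and 2 weeks after FT. In each of these comparisons 1 of 9 settings called it.

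**Figure D4:**
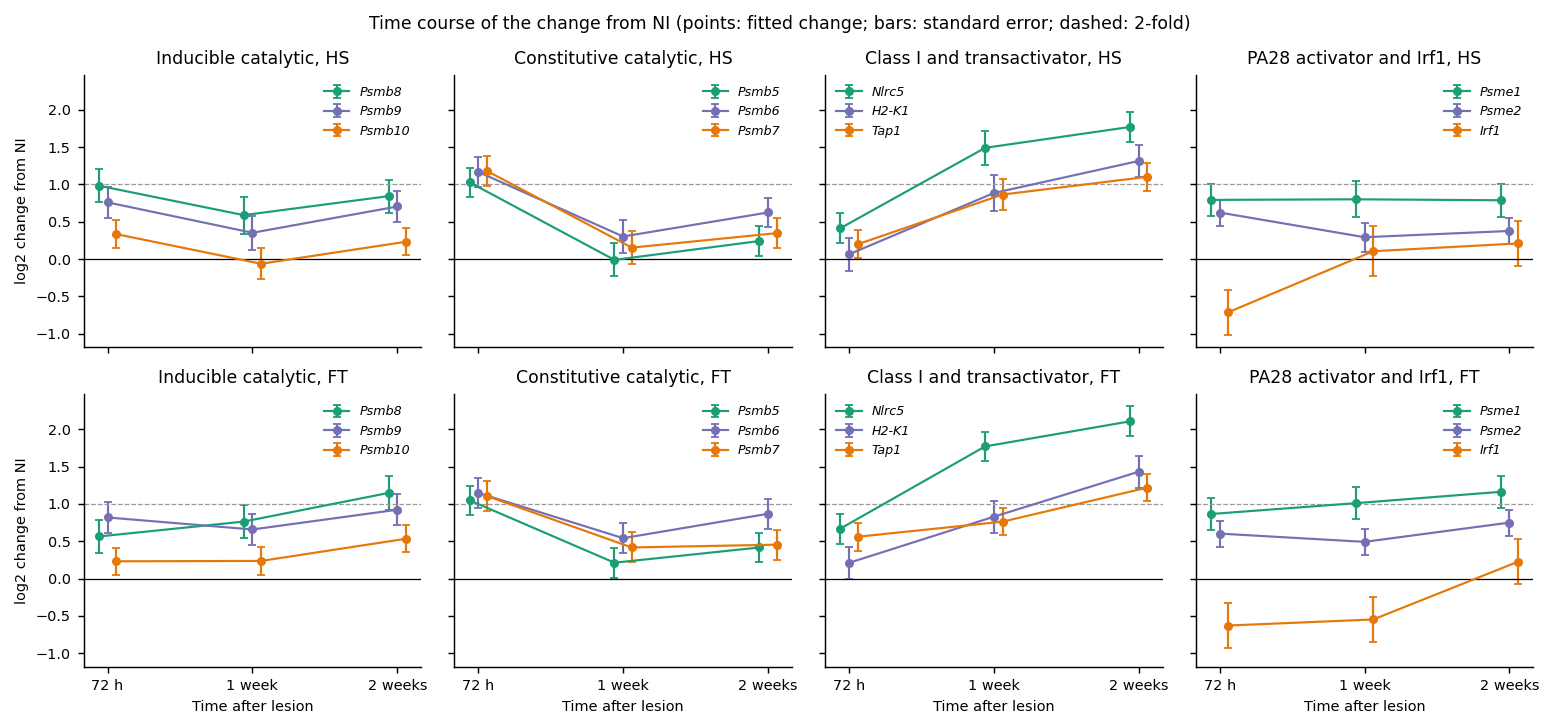
Log2 change from NI (y axis, log2 of CPM plus 0.5) against time after HS (top) and FT (bottom). Panels hold the inducible catalytic subunits, the constitutive ones, the members Nlrc5, H2-K1 and Tap1, and both PA28 activator subunits with the regulator Irf1. Points are fitted changes, bars standard errors and the dashed line 2-fold. The constitutive subunits lie above 1 only at 72 h, and Nlrc5 lies above 1 from 1 week on.

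Interferon-induced genes were already high at 72 h. Of 20 such genes outside the members, 14, 14 and 16 had risen at 72 h, 1 and 2 weeks after HS and 15, 16 and 16 after FT, and 0 had fallen. Examples at 72 h are *Ifi27l2a* (3.11 after HS and 3.902 after FT) and *Ifit2* (2.54 after both), and at 2 weeks *Cxcl9* (2.91 and 3.24) and *Iigp1* (2.82 and 3.15). With columns scaled to 1 total 10 were called at 72 h after HS and 14 after FT. Without the low-*Bsg* libraries 9, 5 and 9 were called after HS and 12, 15 and 16 after FT.

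The sorted cells were also read for markers of other cell types. Of 10 monocyte markers, 4 rose at 72 h after HS and 7 after FT, *Ccr2* by 1.85 and 2.25 (2 and 5 without the low-*Bsg* libraries), and at 1 and 2 weeks 1 of them (*Ms4a4c*) was higher. Their sum was 33.1 to 42.9 CPM in NI, 91.1 to 174 and 129.5 to 318 CPM at 72 h after HS and FT, and 50.2 to 105 CPM at the later times. Of 12 markers of T and NK cells, 1 rose (*Nkg7*, at 72 h after FT), and of 5 B cell markers and 9 neutrophil markers 0. Neutrophil markers summed to 16.4 to 304 CPM in the 3 samples at 2 weeks after FT and to 48.2 to 118 CPM in NI. The 6 markers of border-associated macrophages were all lower at 2 weeks after both injuries, *Lyve1* by -3.04 and -2.95. Of 7 dendritic cell markers, *Itgax* (CD11c) was higher at 1 week (2.20 after HS and 1.70 after FT) and 2 weeks (3.39 and 3.29), as the 1 DE gene of that list, a call lost at 1 week after HS without the low-*Bsg* libraries. No listed marker was at 0 in every sample of a group. The part of these cells in the levels of the members was not tested.

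The 10 genes outside the members whose pattern was most like the mean z-score of the members over the 20 samples, among 9861 genes with a mean of at least 5 CPM, were *H2-M3* (Pearson r = 0.95), *Colec12* (0.93), *Apoc4* (0.93), *Cox6a2* (0.92), *Fam20c* (0.92), *Pianp* (0.91), *Lgals3bp* (0.91), *Axl* (0.90), *Cxcl16* (0.90) and *H2-T23* (0.90). These points share libraries and the step from NI to injury. Among the members, *H2-K1* and *Nlrc5* were closest (r = 0.91), and *H2-D1* and *Psmb9* farthest apart (r = 0.14, with *H2-D1* lowest in the low-*Bsg* library of all 7 groups and *Psmb9* highest in that of 5). No p is given for these correlations, which describe 20 samples in 7 groups.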

How the data were processed

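Polyadenylated RNA of sorted eGFP-high cells was sequenced (SMARTer Ultra Low and Nextera libraries, HiSeq). Per the labels and the study's methods, the authors removed adapter reads, mapped with TopHat2 2.0.9 to mm10 (GRCm38), counted reads per gene with HTSeq 0.5.4p3, kept genes with 10 counts in at least 2 replicates and normalised by library size with edgeR 3.3.6. The signal the authors deposited is a normalised count in CPM over 16810 genes and 20 samples, with column totals that differ between samples. All 336200 values were whole multiples of the step of 1 read (tolerance 0.001 step), so reads were recovered; 1 read is worth 0.0330 to 0.292 CPM, which covers counting error only.

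The log2 of each value plus 0.5 CPM was used. Limma 3.58.1 with an intensity trend was fitted to all 20 samples with 7 group means, with 15 contrasts and Benjamini-Hochberg adjustment over 16810 genes (R 4.3.3). DE genes had adjusted p under 0.05 and at least 2-fold change. The 3 subunit ratios had exact two-sided permutation tests over samples. Alternatives were 0.1 or 1 CPM added, at least 1 CPM in at least 2 samples, the 2 groups alone, median-of-ratios, quantile or equal-total scaling, no fold limit, a replicate block, tests of the recovered reads with edgeR 4.0.16 (quasi-likelihood and likelihood ratio) or DESeq2 1.42.0, and dropping every sample in turn; a term for the library class by *Bsg* and a fit without those libraries were added after seeing the data. The fits were tested on simulated data. The members and gene lists were chosen with earlier results of these data known.

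All members are named, up to 4 called genes of each other list, a set of catalytic subunits and regulators, and the 10 genes most correlated with the members. Genes of the lists outside the members numbered 205, of which 190 are in the table. Coordinates are from GENCODE vM21, in which 15729 symbols of the table (93.6%) were found. Strandedness, batches and read length are not given in the sources used here. A gene of the regulator list is not reported here.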

Additional observations from a re-analysis of the deposited data

How the results depend on the processing

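Counts below are members called DE, set against those of the report, and the cause of each shift was not tested. At 72 h after HS 1 member was called with median of ratios, either edgeR test or DESeq2, and 2 without the fold limit, in place of 0. At 1 week after HS 2 were called without the fold limit and 0 without the low-*Bsg* libraries, in place of 1. At 2 weeks after HS 5 were called with only the 2 groups, no fold limit, either edgeR test, DESeq2 or the library-class term, and 1 with quantile or equal-total scaling, in place of 3. At 72 h after FT 3 were called without the fold limit. At 1 week after FT 1 was called with only the 2 groups, quantile or equal-total scaling or without the low-*Bsg* libraries, and 6 without the fold limit, in place of 2. At 2 weeks after FT 2 were called with quantile and 3 with equal-total scaling, in place of 6. From 72 h to 1 week after HS 2 were called with quantile or equal-total scaling, 3 without the fold limit and 0 without the low-*Bsg* libraries, and from 72 h to 2 weeks 4 with quantile or equal-total scaling or no fold limit and 5 without the low-*Bsg* libraries. From 72 h to 1 week after FT 0 were called without the low-*Bsg* libraries, and from 72 h to 2 weeks 4 without the fold limit.

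With each sample left out in turn, the counts ran from 0 to 1 at 72 h, 1 to 1 at 1 week and 2 to 4 at 2 weeks after HS, and from 0 to 1, 1 to 2 and 5 to 6 after FT. From 72 h to 1 week they ran from 0 to 1 after both injuries, and from 72 h to 2 weeks from 2 to 4 after HS and 2 to 2 after FT. FT against HS and 1 against 2 weeks gave 0 under every alternative. The all-time log2 ratio differences ran from 0.27 to 0.41 for *Psmb8* to *Psmb5*, -0.11 to -0.05 for *Psmb9* to *Psmb6* and -0.41 to -0.32 for *Psmb10* to *Psmb7*. Within a time they were 0.57 (1 week) and 0.67 (2 weeks) for *Psmb8* to *Psmb5*, -0.37 (72 h) for *Psmb9* to *Psmb6*, and -0.86 (72 h) and -0.19 (1 week) for *Psmb10* to *Psmb7*. No direction of a called result reversed.

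Replicate numbers were not shown to pair the samples: same-numbered samples had r of -0.58 to 0.57 (median 0.0018 over 57 pairs), and 9 samples correlated best with their own number. With the replicate block no count of members called changed in any comparison. The fewest reads behind a member in a sample were 51, for *Nlrc5*.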

Other observations

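Of 5 interferon ligand genes listed, *Ifnb1* was the 1 in the table. It had 2.70 CPM in NI and 18.2 CPM at 72 h after HS (log2 change 2.33, SE 0.79, adjusted p = 0.033 by limma), with 7.79 to 33.2 CPM among the 3 samples. At 1 week after HS its mean was 16.8 CPM (14.7 and 18.9 CPM in the samples), and at 2 weeks 5.97 CPM. After FT the mean was 9.01 CPM at 72 h and 4.26 CPM at 1 week. At 2 weeks after FT its samples had 1.31, 21.5 and 21.7 CPM, and it was not DE there. Of 11 interferon receptor and signalling genes, *Stat2*, a transcription factor of type I interferon signalling, was higher at 1 week (1.05 after HS and 1.11 after FT) and *Socs1*, a feedback inhibitor of the pathway, was lower at 72 h after HS (-1.19).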
